A study of Homo sapiens with 8 samples.

Results

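The sites described here are the candidate ac4C positions of wild-type (WT) H1 cells that lie in genes with no site at all in the NAT10 knockdown (NAT10 KD) list. They were chosen by taking each site of the deposited WT list whose Ensembl gene identifier is missing from the deposited NAT10 KD list, which left 721 of 1005 WT sites (71.7%), in 661 of 883 WT-listed genes (74.9%). These shares are the rule itself, so nothing is read from them. H1 is a human embryonic stem cell line. WT cells were kept on Matrigel in a defined pluripotency medium. NAT10 KD cells had taken up a lentivirus with an shRNA against NAT10 and GFP, were enriched for GFP and were expanded in TeSR-E8 with puromycin. No control shRNA is described for the WT cells, so knockdown, transduction, selection and medium cannot be told apart. Each genotype had treated and input libraries in 2 replicates, 8 libraries in 4 groups, and each genotype is represented by 1 list of sites with no value per library. Depth per site and replicate error are therefore unknown, and no p-value is given.

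N4-acetylcytidine (ac4C) is a cytidine that carries an acetyl group on its base, and NAT10 is the known acetyltransferase for it in human RNA. The modification is long established in the small-subunit rRNA and in some tRNAs, and its extent in mRNA is debated. The assay treats captured mRNA with sodium cyanoborohydride, which reduces ac4C so that reverse transcription can misread it, and a site is then seen as a C-to-T mismatch. NAT10 itself had 0 listed sites in WT and 0 in NAT10 KD, so the lists do not check the knockdown.

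Whether a listed position is a C could be read where it fell inside a RefSeq promoter window, which spans 250 bases before to 50 bases after an annotated gene start in GRCh38.p14, the assembly of hg38. Of the 721 sites, 36 did, and the reference base on the listed strand was C at all 36. The same held for the 19 WT sites in genes of both lists and for the 32 sites in genes of the NAT10 KD list only that could be read. The sequences below run 5′ to 3′ on the listed strand, with 10 bases on either side and the listed position as the capital letter. The first 6 are the highest-scoring genes that could be read, and the other 8 lie in the start window of their own gene.
UQCRH, chr1:46303803-46303823, plus strand: tccggagatcCtgaggaggta
NTHL1, chr16:2047750-2047770, minus strand: ggctgggccgCgggggtgtag
SPINT1-AS1, chr15:40844308-40844328, minus strand: acccggcagcCagacagacgg
DPCD, chr10:101588389-101588409, plus strand: tgctgcaggaCggtaactcga
POLR2I, chr19:36114984-36115004, minus strand: gagccgagccCgaggcggcgg
CLSPN, chr1:35769877-35769897, minus strand: tagtggagcgCaggggaggca
CKS1B, chr1:154974701-154974721, plus strand: tggaggttggCggcgcggggc
GTF2A2, chr15:59657470-59657490, minus strand: gagaggtggtCggagaagtag
DIAPH1, chr5:141618969-141618989, minus strand: tgggcggcggCgggcgcggag
SF3A3, chr1:37990016-37990036, minus strand: gcgcgctgggCggcaggagtt
UQCC2, chr6:33711655-33711675, minus strand: ccggtaccggCgttttcttaa
ARPC5, chr1:183635764-183635784, minus strand: cagtcggcgaCgcctcagagc
ATG4B, chr2:241637697-241637717, plus strand: ggcggccggaCtgggaagatg
INO80B, chr2:74455089-74455109, plus strand: ttctagtcccCtttcctcgca
G was the most frequent neighbour on both sides. Among the 35 sites with their neighbours inside the window, G followed the C at 19 (54.3%) and preceded it at 17 (48.6%). Over each C on both strands of all 35116 windows, the shares were 19.6% and 30.2%. That background was not limited to expressed genes, to the transcribed strand or to transcribed bases, so it is unlike the sites. Adjacent bases of SPINT1-AS1 are counted as separate sites. The C opened the letters CGG at 13 sites (37.1%), as in CKS1B, GTF2A2, DIAPH1 and SF3A3 above, against 7.07% of C bases in all windows. It was the middle letter of GCG at 10 (28.6%, against 7.64%) and of CCG, the context known from NAT10 overexpression, at 3 (8.57%, against 7.07%). These motifs overlap, since a CGG site can also be a GCG or a CCG site. On either strand, 88.1% of all windows hold CGG (and so CCG, its reverse complement) and 85.2% hold GCG. The other sites showed shares of the same order: CGG at 31.6% of 19 WT sites in genes of both lists and at 32.3% of 31 sites in genes of the NAT10 KD list only. The letters were chosen after the sequences were seen and the share was not tested. Windows cover gene starts, so the bases around the remaining sites were not read.

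Along the gene span, the sites gathered at both ends. The span is the genomic one from RefSeq and includes introns. No exon annotation was used, so positions and distances given here are not those in the mature mRNA. For 705 of the 721 sites the position inside the RefSeq gene span was known. Counted from the 5′ end, the median lay at 56.9% of the span (95% binomial interval of the median 52.1 to 59.5). The first of 10 equal parts of the span held 147 sites, or 20.9% (95% exact Clopper-Pearson interval 17.9 to 24), and the last held 130, or 18.4% (15.6 to 21.5), while the part next to the first held 30. All intervals given here cover counting error only. In genes of both lists the WT sites had a median of 57.1% (47.6 to 63.4), with 26.6% (21.5 to 32.2) in the first part and 16.9% (12.7 to 21.8) in the last. Sites in genes of the NAT10 KD list only had a median of 62.7% (57.8 to 66.2), with 18.4% (15.5 to 21.6) and 22.1% (19 to 25.5). These intervals overlap with those of the WT-only genes, and no test between the sets was made.

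**Figure D1:**
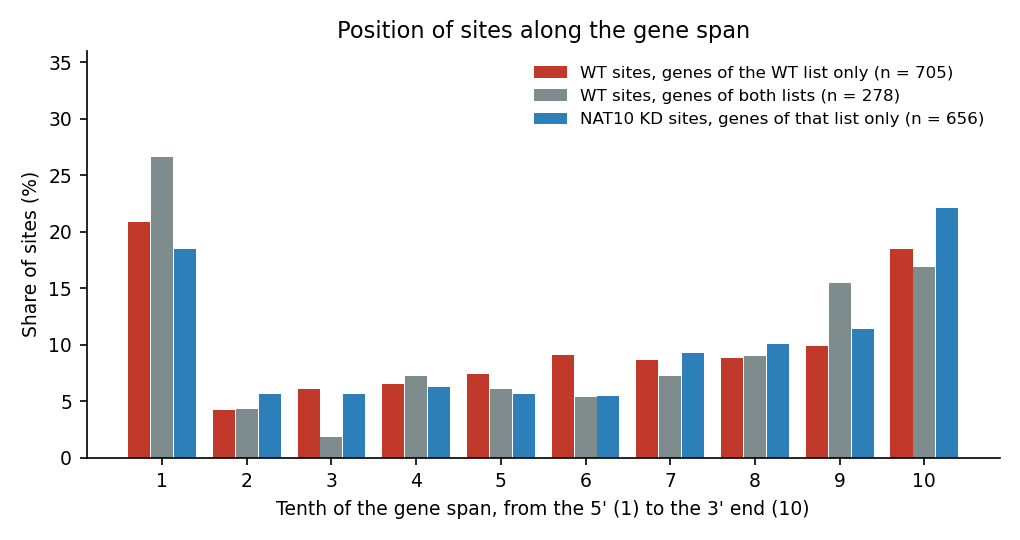
Share of sites (y axis, percent) in each of 10 equal parts of the gene span (x axis), from the 5′ to the 3′ end, for 705 WT sites in genes of the WT list only, 278 WT sites in genes of both lists and 656 NAT10 KD sites in genes of that list only. The end parts are the highest in each set, at 20.9% and 18.4% for genes of the WT list only.

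Many of the 5′ sites were close to the annotated start, but this was not particular to the set. Within 1000 bases of the 5′ end lay 20.4% of the 705 sites (17.5 to 23.6). The share was 29.1% (23.9 to 34.9) for WT sites in genes of both lists. For sites in genes of the NAT10 KD list only it was 20.1% (17.1 to 23.4). The interval for genes of both lists lies above that of the WT-only genes, and no test was made. Of the 705 sites, 31 lay in the first 100 bases of the span and 46 in the next 100, and then 8 in each of the following intervals of 100 bases up to 400. Examples are NTHL1, a DNA glycosylase of base excision repair, at 74 bases from the 5′ end, DPCD at 78, CLSPN, the claspin adaptor of the replication checkpoint, at 91, and the amino acid transporter gene SLC7A8 at 95. TALDO1 (transaldolase) lay at 111 bases, the tubulin gene TUBB2B at 113, UQCRH and the splicing-associated gene PNN at 115 and EIF4A3 at 117. The place moved with the score. Of the 23 placed sites that scored 5 or more, 7 were within 300 bases of the 5′ end (30.4%, 13.2 to 52.9), against 33 of 178 at scores of 2 to 5 (18.5%, 13.1 to 25.0) and 45 of 504 below 2 (8.93%, 6.59 to 11.8). The median position was 36.3%, 49.3% and 58.3% of the span in these classes. The WT sites of genes in both lists showed the same order, with 17 of 34, 24 of 95 and 17 of 149 sites within 300 bases. Span length moved with place as well: in members shorter than 10 kb the median position was 47.2% (158 sites), and in those of 100 kb or more it was 71.0% (93 sites).

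**Figure D2:**
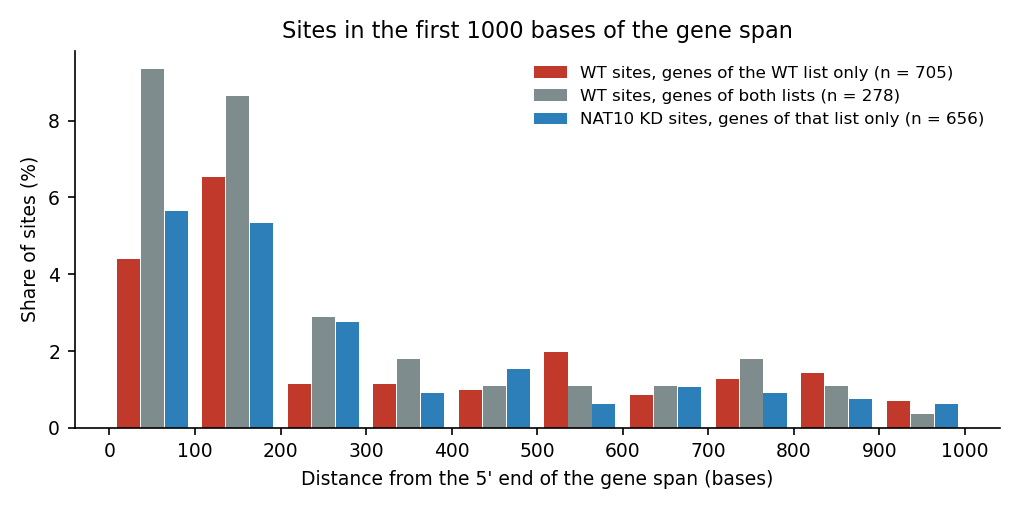
Share of sites (y axis, percent of the sites placed in a gene span) by distance from the 5′ end in intervals of 100 bases (x axis), for the 3 sets of sites. The first 200 bases hold 77 of the 705 sites in genes of the WT list only, and each later interval holds at most 14.

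The authors' score, whose formula is not given, ranked 5 of these sites among the top 20 of the WT list, 19 among the top 50 and 51 among the top 100. Over the whole WT list these sites made up 71.7%, so they were less frequent at the top than in the list. The median score was 1.65 (1.61 to 1.70) over the 721 sites, beside 1.89 over the 284 WT sites of genes in both lists and 1.70 over the whole WT list. Membership requires absence from the NAT10 KD list, and it differed with the score. This order is therefore tied to the rule, and nothing is read from it. A score under 2 was given to 514 sites (71.3%), and 23 scored 5 or more. The lowest member, in FKBP5, a co-chaperone of steroid receptors, scored 1.3 and was also the last of the WT list. Since the lists appear to end at a score threshold, a gene missing from the NAT10 KD list was not shown to lack acetylation there.

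The highest score, 38.2, was at UQCRH, the hinge subunit of respiratory complex III (chromosome 1, position 46303813, plus strand), which put it at rank 5 in the WT list. EDF1, a transcriptional coactivator that also senses collided ribosomes, scored 23.3 (chromosome 9, position 136863335, minus strand, 71.0% along the gene). CFL1, cofilin, which severs actin filaments, scored 23.1 (chromosome 11, position 65856169, minus strand, 57.3%). By comparison, the upper quartile of the set was 2.16. SRSF7, an SR splicing factor, had a site at 19.4 near its 5′ end (chromosome 2, position 38751245, minus strand, 3.15%) and a further one at 6.05 (position 38748631, 36.3%). NDUFB10 of complex I scored 10.8 (chromosome 16, position 1961549, plus strand, 82.5%) and H3-3A, which encodes the replication-independent histone H3.3, 10.5 (chromosome 1, position 226064383, plus strand, 25.0%). No other member reached 10. The next were the chaperones DNAJA1 (8.70, chromosome 9, position 33026975) and HSP90AA1 (7.92, chromosome 14, position 102086347), the MARCKS-related gene MARCKSL1 (7.78, chromosome 1, position 32335029), the microtubule destabiliser STMN1 (7.39, chromosome 1, position 25901038), TALDO1 (6.81, chromosome 11, position 747575) and TUBB2B (6.61, chromosome 6, position 3227540). Of these genes, UQCRH, CFL1, NDUFB10, DNAJA1, MARCKSL1, STMN1, TALDO1 and TUBB2B matched a pseudogene named after them, so reads of a near-identical copy can be placed on them. Matching by current name misses copies under other names. It found a copy for 175 of the 661 genes (26.5%) and for 73 of the 222 genes in both lists (32.9%).

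**Figure D3:**
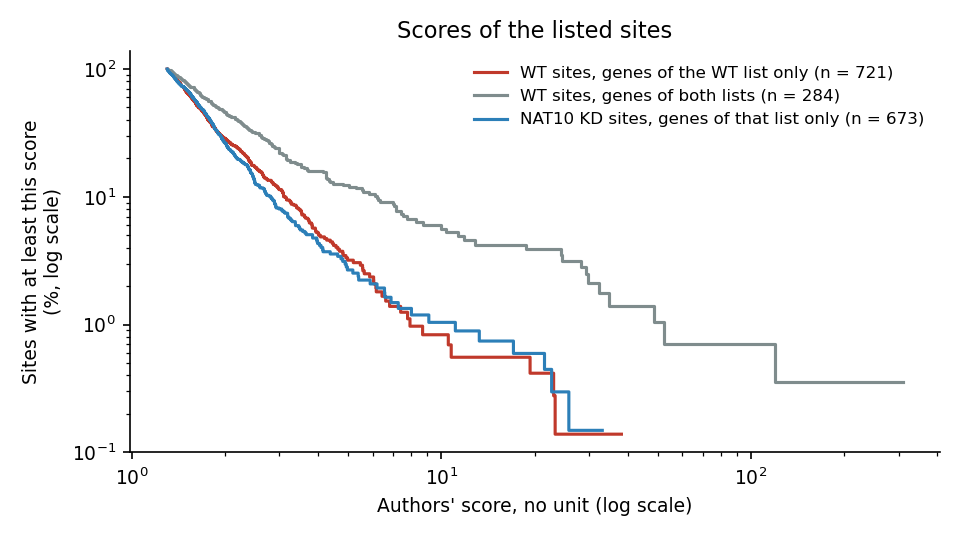
Percent of sites (y axis, log scale) that reach at least a given authors' score (x axis, log scale, no unit), for the 3 sets of sites. The curve of WT sites in genes of both lists lies to the right of the 721 sites in genes of the WT list only, whose highest score is 38.2 and whose median is 1.65. This order is tied to the rule that chose the sites.

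How often a WT gene was missing from the NAT10 KD list differed with its number of sites and its best score. The share was 605 of 780 genes with 1 site (77.6%), 52 of 85 with 2 sites (61.2%) and 4 of 18 with 3 or more (22.2%). By best score it was 462 of 564 genes below 2 (81.9%), 177 of 263 from 2 to 5 (67.3%), 16 of 34 from 5 to 10 (47.1%) and 6 of 22 at 10 or more (27.3%). Absence from the NAT10 KD list is the rule itself, and a gene with more sites has more chances to be in both lists. These shares are therefore tied to the rule, and nothing is read from them.

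Most of the genes carried a single site, 605 of 661 (91.5%, 89.1 to 93.5). The share was 88.3% over the whole WT list, 78.8% for genes in both lists and 92.5% for genes of the NAT10 KD list only. Since a gene with more sites has more chances to be in both lists, the share is tied to the rule. The 4 members with 3 sites were DAZAP1, STK11, MACF1 and TUBA1A. DAZAP1, an RNA-binding protein named for its partner DAZ, had them at positions 1428866, 1428903 and 1429982 of chromosome 19, with scores of 4.45, 1.32 and 2.33. STK11, the LKB1 kinase upstream of AMPK, scored 3.27 at position 1206938 of the same chromosome, 1.5 at 1207141 and 1.46 at 1218427. In MACF1, a giant linker of actin and microtubules on chromosome 1, the sites spread over 82740 bases and scored 1.78, 1.40 and 1.57. The α-tubulin gene TUBA1A on chromosome 12 had 1.40, 1.40 and 1.36, and its outer sites lay 77 and 2746 bases from the 5′ end. Sites of 1 gene share its transcript and its level, and they are not independent.

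Among the 56 genes with several sites, the closest pair was at adjacent bases in 3 (CENPN, CHTOP and SPINT1-AS1), within 100 bases in 13 and more than 1000 bases apart in 32. The adjacent pair of SPINT1-AS1, an antisense transcript beside the protease inhibitor gene SPINT1, scored 5.57 and 3.10 at positions 40844318 and 40844319 of chromosome 15. In the sequence printed for that gene above, they are the capital C and the c just before it. In genes of both lists the WT sites were adjacent in 3 of 47 and within 100 bases in 11.

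None of the 721 sites had a NAT10 KD site within 1000 bp on the same strand under any gene identifier. The rule largely sets this count, since it leaves only NAT10 KD sites listed under another gene identifier. Within 10000 bp, 7 of the 721 sites had a NAT10 KD site. The nearest was in SNHG14, a long snoRNA host (chromosome 15, position 24979105, score 2.06), 1244 bp from a NAT10 KD site listed under SNRPN (score 2.14 there). That NAT10 KD site also lies inside the RefSeq span of SNHG14, so the gene name given to either site is uncertain. All 614 member sites whose gene has a strand in the promoter table lay on that strand.

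By gene function, 373 of the 654 genes with a symbol fell into at least 1 of 29 lists matched by symbol, and 281 into none. Membership by symbol is rough: the kinase gene CDC42BPB, for example, enters the cell cycle list by its name. For each list, the share of WT genes missing from NAT10 KD is read beside the 74.9% for all WT genes, and the number of genes in the NAT10 KD list only shows how the mirror set was made up.

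Splicing and RNA-binding genes were 1 of the 2 most numerous groups. There were 36, out of 53 in the WT list (67.9%, 53.7 to 80.1), and 32 further genes of that list were in NAT10 KD only. SRSF7 led, followed by ELAVL2, a neuronal-type Hu protein that binds AU-rich elements (4.98, chromosome 9, position 23691535, 99.1% along the gene), PNN (4.69, chromosome 14, position 39175369) and EIF4A3, the helicase core of the exon junction complex (4.57, chromosome 17, position 80147011). The SR proteins SRSF1, SRSF2, SRSF3 and SRSF7 were 4 members, and 0 SR genes were in both lists or in NAT10 KD only. SRSF1 had sites at 4.19 and 1.55, SRSF3 1 site at 1.81 and SRSF2 1 site at 1.35. A helicase group with DDX and DHX names counted 9 members, among them DDX17 (2.60), DHX38 (2.29) and DHX15 (1.95), with 0 in both lists and 3 in NAT10 KD only. These and the other complexes and families below were picked after the members were seen, so their counts are a description. Since 74.9% of all WT genes were missing from NAT10 KD, a small family with none shared does not stand out: the interval was 39.8 to 100% for the 4 SR genes and 66.4 to 100% for the 9 helicases.

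Translation factors and tRNA synthetases gave 18 of 24 WT genes (75%, 53.3 to 90.2) and 8 in NAT10 KD only. Their 22 sites had a median score of 2.31, beside 1.65 over all members. The cap-binding protein EIF4E scored 6.05 (chromosome 4, position 98887153, 84.2% along the gene). Subunits of eIF3, which scaffolds the 43S preinitiation complex, were EIF3L, EIF3D and EIF3B, with 2 sites each and best scores of 5.87, 4.63 and 4. No eIF3 subunit was in both lists or in NAT10 KD only, which for 3 of 3 genes gives an interval of 29.2 to 100%, around the 74.9% of all WT genes. The 2 EIF3L sites lay 24329 bases apart on chromosome 22, and those of EIF3D 3307 bases apart on the same chromosome. Synthetases for tyrosine (YARS1, 2.55), leucine (LARS1, 1.82), histidine (HARS1, 1.5) and isoleucine (IARS1, 1.45) were also members.

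Ribosome genes were few. Cytosolic ribosomal proteins gave 3 of 7 WT genes (42.9%, 9.90 to 81.6), RPSA (1.69), RPL22 (1.56) and RPL36 (1.51), and 8 were in NAT10 KD only. Mitochondrial ribosomal proteins gave 7 of 11 (63.6%, 30.8 to 89.1) and 8 in NAT10 KD only, led by MRPL21 (3.83, chromosome 11, position 68896645) and MRPL3 (3.45, chromosome 3, position 131471200). Nucleolar and ribosome assembly genes gave 14 of 19 (73.7%, 48.8 to 90.9) and 15 in NAT10 KD only. They included UBTF, which opens rDNA for RNA polymerase I, with sites at 3.54 and 1.79 on chromosome 17, the histone chaperone-like gene NPM3 (3.23), the exosome subunit EXOSC2 (2.19) and the nucleolar helicase DDX21 (1.91).

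Transcription genes came next. General factors, Mediator and RNA polymerase II gave 18 of 22 WT genes (81.8%, 59.7 to 94.8) and 9 in NAT10 KD only. The polymerase subunit POLR2I scored 4.02 at position 36114994 of chromosome 19, 119 bases outside its RefSeq span on the 5′ side. MAZ, a GC-box zinc finger factor, scored 3.25 and 1.60. The pausing factors NELFE (1.90) and NELFB (1.49) and the DSIF subunit SUPT4H1 (1.66) were members, with 0 other NELF or DSIF genes in either list (3 of 3, 29.2 to 100%). Zinc finger and other sequence-specific factors gave 20 of 30 (66.7%, 47.2 to 82.7) and 13 in NAT10 KD only, led by ZNF775 (2.75), ZNF830 (2.67) and TFAP4 (2.39).

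Among chromatin genes, histones, their chaperones and remodellers gave 13 of 20 (65.0%, 40.8 to 84.6) and 9 in NAT10 KD only. The median position lay at 15.1% of the span over 14 sites, beside 56.9% for all members. It was the lowest median of the 29 gene lists, rests on few sites and was not tested. With scores of at least 2 in both lists it was 19.8%, and other lists lay lower, such as proteasome and ubiquitin genes at 2.09%. After H3-3A came the NURF subunit BPTF (3.94, chromosome 17, position 67826251, 748 bases from the 5′ end). Subunits of the INO80 remodeller, which exchanges and slides nucleosomes, were INO80B (3.16 and 1.55), RUVBL1 (2.58), INO80C (2.35) and MCRS1 (1.32). The INO80 subunit in NAT10 KD only was ACTL6A (4.97), and none was in both (4 of 4 WT genes, 39.8 to 100%). Histone and DNA modifiers gave 5 of 9 (55.6%, 21.2 to 86.3) and 11 in NAT10 KD only. The 5 were the deacetylase HDAC4 (3.07), ASH2L (1.80), KDM4A (1.75), L3MBTL2 (1.55) and EHMT1 (1.51).

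Cell cycle and mitosis genes gave 24 of 31 (77.4%, 58.9 to 90.4) and 19 in NAT10 KD only. Beside CDC42BPB (3.09) were CKS1B, a CDK-binding subunit (2.66, chromosome 1, position 154974711), the centromere protein gene CENPN (2.65 and 1.56 at adjacent bases of chromosome 16) and CDCA4 (2.49). Kinesins counted 5 members (KIF3B, KIF15, KIF2C, KIF16B and KIF14, from 2.11 down to 1.39), 1 gene in both lists and 2 in NAT10 KD only. Replication and repair gave 13 of 21 (61.9%, 38.4 to 81.9) and 12 in NAT10 KD only, with CLSPN at 3.71, POLDIP3 at 2.64 and the origin-firing factor MCM10 at 2.51.

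Energy metabolism held the top member. Oxidative phosphorylation gave 12 of 15 WT genes (80.0%, 51.9 to 95.7) and 11 in NAT10 KD only. After UQCRH and NDUFB10 came ATP5MK, a small subunit of ATP synthase, with 6.43 and 1.69 on chromosome 10, and NDUFB5 (2.55). Complex I subunits numbered 6 members, 2 in both lists and 3 in NAT10 KD only. Other mitochondrial genes gave 9 of 15 (60.0%) and 7 in NAT10 KD only, with the import subunit TOMM7 (2.05) and the fusion GTPase MFN2 (2.05) first. Glycolysis and central metabolism gave 14 of 21 (66.7%, 43 to 85.4) and 6 in NAT10 KD only. TALDO1 and TKT (2.57), both enzymes of the non-oxidative pentose phosphate pathway, were members.

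Membrane trafficking equalled the splicing group, at 36 of 43 WT genes (83.7%, 69.3 to 93.2) and 25 in NAT10 KD only. RAB10, a GTPase of exocytic transport, scored 4.81 (chromosome 2, position 26109776), the syntaxin STX10 3.61 (chromosome 19, position 13149543), BICDL1 2.92 and the signal peptidase subunit SEC11C 2.83. The RAB GTPases RAB35 (1.74), RAB2B (1.67) and RAB7A (1.41) were also members. Kinases, phosphatases and GTPase regulators gave 27 of 30 (90%, 73.5 to 97.9), and 28 further genes of that list were in NAT10 KD only. PPP2CA and PPP2CB, both catalytic subunits of PP2A (3.48 and 1.69), and the PP2A activator PTPA (2.07) were members, as were PPP1CC, a catalytic subunit of PP1 (2.87), and its inhibitor PPP1R14B (3). In NAT10 KD only were PPP1CB (1.80), PPP1R12C (1.84) and PPP2R5D (1.64).

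Cytoskeleton genes gave 23 of 28 (82.1%, 63.1 to 93.9) and 24 in NAT10 KD only. CFL1, MARCKSL1, STMN1 and TUBB2B led, and 3 subunits of the actin-branching Arp2/3 complex were members: ARPC5 (1.86 and 1.57), ARPC1A (1.62) and ARPC5L (1.60). ACTR3 of that complex was in both lists. Adhesion and matrix genes gave 9 of 14 (64.3%) and 12 in NAT10 KD only, led by the tetraspanin CD63 (5.58, chromosome 12, position 55727316), the collagen gene COL4A2 (3.33) and N-cadherin, CDH2 (1.90). Chaperones gave 11 of 17 (64.7%, 38.3 to 85.8) and 15 in NAT10 KD only, and after DNAJA1 and HSP90AA1 came the constitutive HSP70 gene HSPA8 (4.07) and the tubulin cofactor TBCB (3.10). Proteasome and ubiquitin genes gave 20 of 28 (71.4%, 51.3 to 86.8) and 18 in NAT10 KD only. Their highest were the proteasome subunits PSMB1 (3.64) and PSMA3 (3.39) and the KRAB corepressor TRIM28 (3.54).

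**Figure D4:**
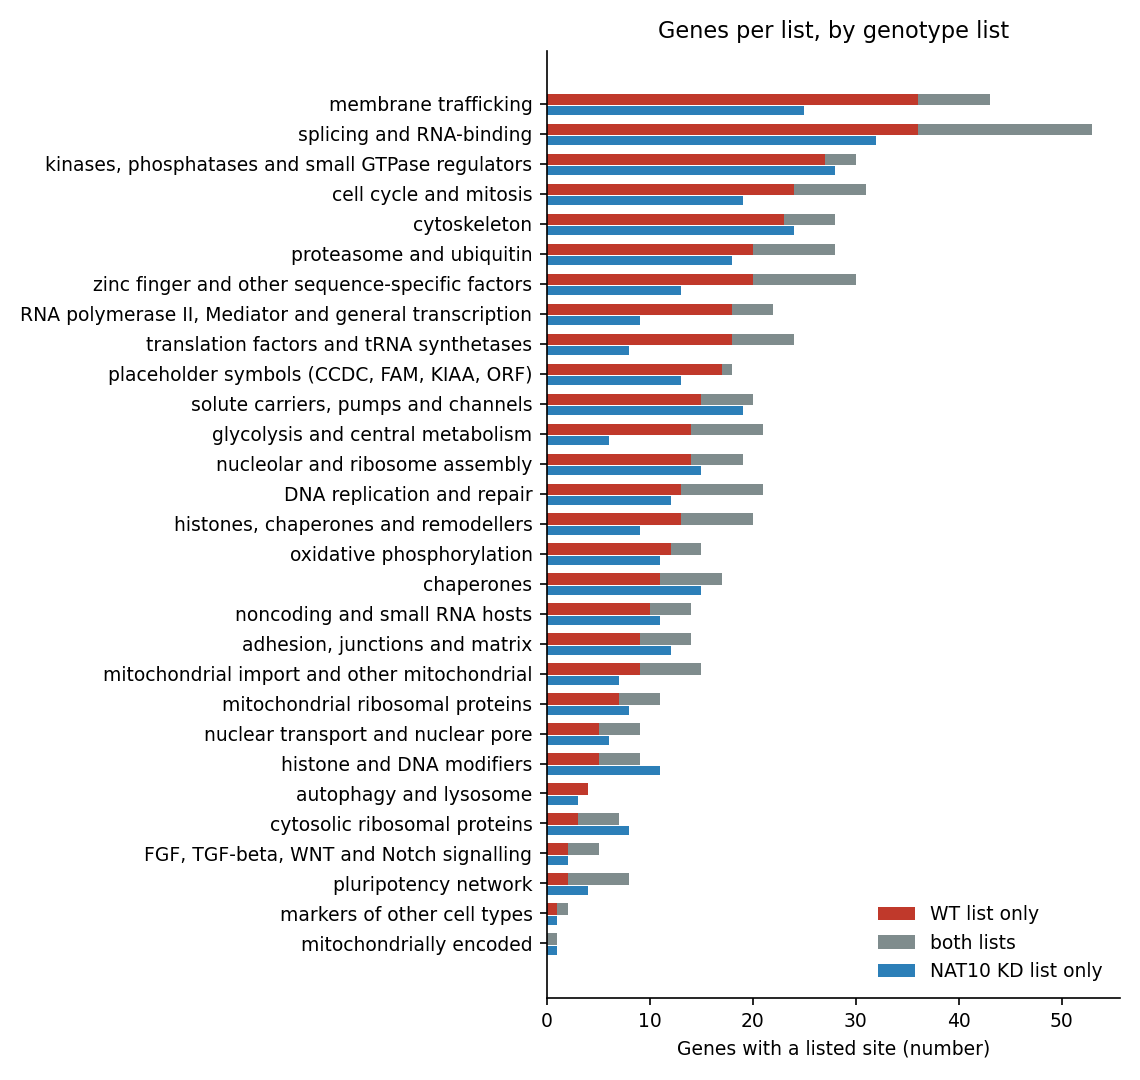
Number of genes with a listed site (x axis) in each gene list (y axis). The upper bar of each pair adds genes of the WT list only to genes of both lists, and the lower bar gives genes of the NAT10 KD list only. Splicing and RNA-binding genes and membrane trafficking genes each have 36 in the WT list only.

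The smaller lists each gave 17 genes or fewer. Solute carriers, pumps and channels gave 15 of 20 and 19 in NAT10 KD only, led by TMEM106C (4.26) and SLC7A8 (3.92). A list of placeholder symbols, mostly CCDC, FAM and KIAA names, gave 17 of 18 and 13 in NAT10 KD only, led by CCDC85B (3.51) and CCDC8 (3.09). Autophagy and lysosome genes gave 4 of 4, SQSTM1 (3.17), CTSC (1.82), BECN1 (1.79) and ATG4B (1.56), and 3 others were in NAT10 KD only. Nuclear transport gave 5 of 9 and 6 in NAT10 KD only, led by RANBP1 (2.07). FGF, TGF-beta, WNT and Notch signalling gave 2 of 5 and 2 in NAT10 KD only, TLE5 of the Groucho family (2.43) and the WNT receptor FZD5 (1.74). The mitochondrial genome gave 0 of 1 and 1 in NAT10 KD only.

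Pluripotency genes gave 2 of 8 WT genes (25.0%, 3.19 to 65.1), and 4 were in NAT10 KD only. This interval lies below the 74.9% of all WT genes, but 29 lists were read and none was tested. With scores of at least 2 in both lists, the share was 3 of 5 (60%, 14.7 to 94.7), so it depends on the minimum. DPPA4, a nuclear factor of pluripotent cells, had sites at 3.83 and 2.19, at 97.0% and 66.0% of its span (chromosome 3, positions 109326553 and 109330731). SOX2, a core pluripotency factor, had 1 site at 2.01, 1601 bases into its short span (chromosome 3, position 181713526). Of 11 embryonic stem cell markers, these 2 were members, 4 were in both lists and 2 in NAT10 KD only. Of 24 genes taken here as markers of other cell types, 1 was a member, the epithelial keratin KRT8 (3.53). Another 1, THY1, was in both lists and 1, TUBB3, in NAT10 KD only. Whether these genes are absent from embryonic stem cells was not checked, so they do not show other cell types. A listed site needs a transcript that was read, but it does not measure its level.

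Noncoding genes made up little of the set. RefSeq classed 634 of the 661 genes as protein coding (95.9%, 94.1 to 97.3), 12 as lncRNA, 6 as pseudogenes, 1 as antisense RNA and 1 as another noncoding RNA, and 7 had no match. The list matched by symbol held 10 Ensembl identifiers of noncoding and small RNA host genes, out of 14 in the WT list, and 11 in NAT10 KD only. SNHG14 counts among them under a pair of identifiers, with 1 site each (2.06 and 1.72). By RefSeq class, SPINT1-AS1 led the lncRNAs, followed by CHASERR (3.16, chromosome 15, position 92897870), which the list does not hold, and the snoRNA host SNHG15 (2.44, chromosome 7, position 44985204). Both SPINT1-AS1 sites lay over more than 1 RefSeq gene. The antisense RNA was PINK1-AS (2.43), whose site lay over more than 1 RefSeq gene, and GABPB1-AS1 scored 2.13. The pseudogenes included HMGB1P5 at 3.83 (chromosome 3, position 22381824), whose reads can come from HMGB1. Of the 721 sites, 85 (11.8%) lay over more than 1 RefSeq gene.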

How the data were processed

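ac4C sites were mapped in treated and input RNA of WT and NAT10 KD H1 cells. Per the submitters' processing notes, the tools were SAMtools 1.12, fastp 0.21.1 and STAR 2.7.8a and the build was hg38. How sites were called and filtered, and whether replicates were pooled, was not given in the sources used here. Each genotype has 1 list, in which the authors deposited a score per site, per the file headers. Its formula and unit are not stated. Sites were ranked within a list. Scores of both lists were set side by side in the score plot, at some named genes and in the minimum of 2, and whether they share a scale is not known.

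Sites were printed by the end coordinate. Genes were compared by Ensembl identifier. Matching to the RefSeq table of GRCh38.p14 tried that identifier first, then symbol, then synonym (714 of 721 sites). Members, gene lists and choices were made with earlier results of these data known. Named by rule were the 12 highest sites, genes with 3 or more sites, up to 4 genes per list, sites within 1000 bp of a NAT10 KD site (none), the lowest member and genes with printed sequences. Any further gene was picked with its value in view, to complete a family or count. Sequences came from the RefSeq promoter table. None was printed from chromosome 8. Exact Clopper-Pearson intervals are at 95%. Calculations used Python 3.11.15, pandas 2.3.3 and SciPy 1.17.1. Set assignment and sequence reading were first tested on simulated sites.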

Additional observations from a re-analysis of the deposited data

How the results depend on the processing

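The set depends most on the score minimum. With sites that score at least 2 in both lists, the genes of the WT list only numbered 235 in place of 661 (199 of them among the 661 and 36 from genes in both whole lists), their sites 246, single-site genes 95.3%, the median position 46% and genes in at least 1 gene list 158 in place of 373. Of the 29 gene lists, 23 then changed their count by more than 1.5 times and 6 did not. Sites at least 1 above the lowest score left 196 genes, and a minimum of 2 in the WT list alone, added after seeing the data, left 199. Matching by symbol gave 660 genes, counting a NAT10 KD site within 1000 bp as presence 661, leaving out genes with copies 486 and sites over 1 RefSeq gene, also added later, 578. Sites without a NAT10 KD site at the same position numbered 901 and within 10 bp 886. The median position without overlapping genes was 57.3% and with 1 site per gene 57.3%, and the median score was 1.65 without copies and 1.68 with 1 site per gene. No paired analysis was possible because the lists carry no value per replicate, so leaving out a replicate could not be tried either. Depth per site is unknown.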

Other observations

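Metallothioneins, small cysteine-rich proteins that bind zinc and copper, were a group of 4 members: MT1F (1.98), MT1G (1.68), MT1H (1.65) and MT2A (1.41), with 0 in both lists and 0 in NAT10 KD only. For 4 of 4 WT genes the interval was 39.8 to 100%, around the 74.9% of all WT genes missing from NAT10 KD, so the group does not stand out. They lie on chromosome 16, at positions 56658730, 56667353, 56670530 and 56609420. The sites were 771, 712, 716 and 836 bases from the 5′ end of their genes. Metallothionein genes are known as closely related paralogs, and how reads were assigned among them was not tested. The group was picked after the members were seen.

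By chromosome, chromosome 1 held 73 of the 721 sites (10.1%, beside 10.3% of RefSeq protein-coding genes), chromosome 17 held 59 (8.18%, beside 5.83%) and chromosome 19 held 56 (7.77%, beside 7.24%). Chromosome X held 1, in GTPBP6 of the pseudoautosomal region (position 312876, minus strand, score 1.42). Whether the lists used here cover X in full is not known, so nothing is read from that count. On chromosome 15, 30 of the 721 sites (4.16%, beside 3.08% of genes) stood beside 3 of 284 WT sites in genes of both lists (1.06%) and 14 of 673 sites in genes of NAT10 KD only (2.08%). These chromosomes were picked after their counts were seen, and no test was made.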
